A study of Arabidopsis thaliana with 20 samples.

Results

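AT1G23160 and AT5G51470 are 2 GH3 family genes of Arabidopsis thaliana, taken by locus code from the annotation that pairs probe sets with genes. They were chosen by their p35S values, a signal lower in hypoxia than in air in the polysomes of that line, so that difference is given as a description and was not tested. Each gene has 1 probe set of its own, 264892_at and 248431_at, among 13513 tested probe sets that name a single gene. Here a gene's own probe set is one that the annotation pairs with that gene alone. Of 22746 tested probe sets, 8730 have no gene listed there. A gene counted as not measured may therefore still be on the array. Arrays of 5 RNA populations of the root tip were compared in air and in hypoxia, with 2 arrays in each of 10 groups. In 4 populations, messenger RNA was immunopurified with ribosomes from Col-0 seedlings in which 1 promoter drove a His- and FLAG-tagged ribosomal protein, RPL18B. The promoters were p35S, which is broadly active, pSCR, which the labels place in the endodermis, and pSHR and pWOL, which they place in vascular tissue. Total RNA, the other population, came from the same lysates as the p35S polysomes. All seedlings were 7 days old and carried a transgene. Hypoxia was 2 h under argon, the controls stood in air for the same time, and the terminal 1 cm of the roots was then taken. The transgene labels ribosomes only where its promoter is active, and RNA was amplified in 2 rounds from 400 pg.

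GH3 proteins are acyl acid amido synthetases. They join amino acids to small carboxylic acids, among them the hormones auxin and jasmonate. Several Arabidopsis members conjugate auxin, which stores the hormone or marks it for breakdown, and some of their genes are induced by auxin itself, so that the enzymes form part of a feedback on hormone level. In the root tip, auxin level and conjugation are known to bear on growth and branching. No substrate is given here for AT1G23160 or AT5G51470, and the sources used here name them by locus code only. No member sequence is shown.

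Values are log2 expression after robust multi-array averaging (RMA), a method that summarises the probes of a probe set into 1 value and compresses low signals. The array medians lay between 6.41 and 6.55 and the lower quartiles between 4.90 and 5.07, so an array value near 5 was close to the lower quartile of its array. A difference in bulk RNA cannot tell fewer cells of a type from less RNA per cell. No source used here says that replicates came from separate cultures, so p-values cover only how much these arrays scatter. All 12 measured genes of a list of 22 low-oxygen response genes were called higher in hypoxia in each of the 5 populations. Of all probe sets, 1.94% (total RNA) to 3.97% (pWOL) were called higher. That list was drawn up with earlier results of these data known, so its calls describe the treatment and do not test it. In pSCR hypoxia replicate 2, the control probe set for 25S ribosomal RNA read 10.18, against 12.69 to 14.34 in the other 19 arrays.

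In air, the p35S polysomes held the highest signal of both genes. AT1G23160 read 8.04 and 9.14 in the p35S arrays in air. It read 6.14 and 6.04 in total RNA, 5.07 and 6.12 in pSCR, 6.72 and 6.14 in pSHR, and 4.75 and 5.06 in pWOL. Both p35S arrays in air lay above the other 18 arrays, which ran from 4.75 to 6.72 with a median of 5.33. The pWOL arrays in air were at or below the level of most hypoxia arrays.

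AT5G51470 read 7.48 and 8.03 in the p35S arrays in air. It read 5.61 and 6.02 in total RNA, 6.26 and 5.26 in pSCR, 5.66 and 5.07 in pSHR, and 5.60 and 6.04 in pWOL. Again both p35S arrays in air stood above the other 18, which ran from 4.72 to 6.26 with a median of 5.23. The 2 pSCR arrays in air disagreed for each gene and in opposite senses: replicate 2 was the higher for AT1G23160 and replicate 1 for AT5G51470.

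**Figure D1:**
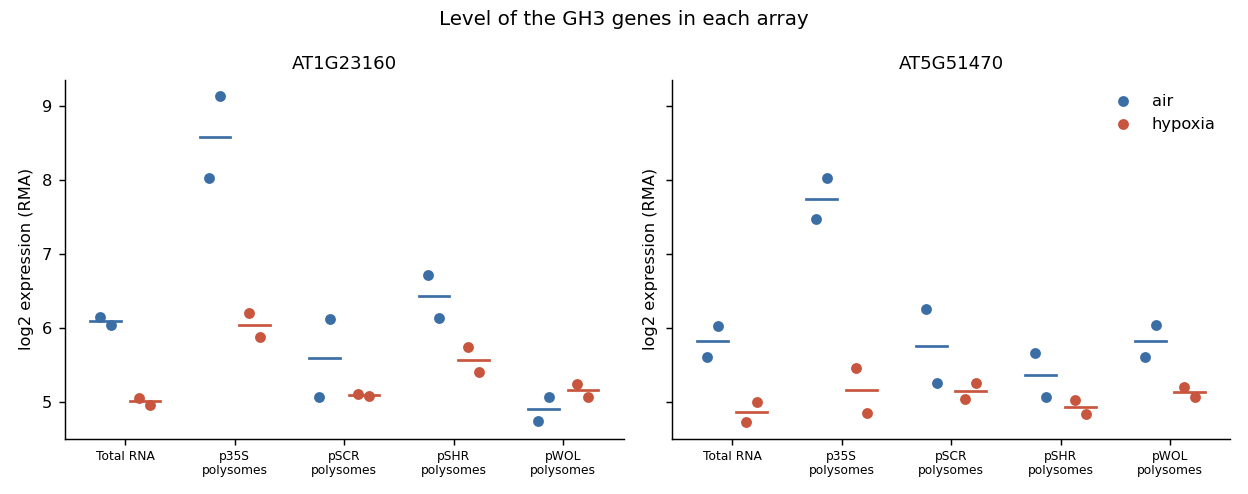
Level of AT1G23160 (left) and AT5G51470 (right) in each of the 20 arrays, as log2 expression after RMA, by RNA population; blue points are arrays in air, red points arrays in hypoxia, and bars the means of 2 arrays. The p35S arrays in air (8.04 and 9.14, 7.48 and 8.03) lie above all others, and the hypoxia arrays of both genes lie between 4.72 and 6.20.

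In hypoxia, AT1G23160 read 6.20 and 5.88 in the p35S polysomes, 5.06 and 4.95 in total RNA, 5.10 and 5.07 in pSCR, 5.74 and 5.41 in pSHR, and 5.25 and 5.07 in pWOL. The p35S arrays remained the highest of the hypoxia arrays, and pSHR came next. AT5G51470 read 5.47 and 4.85 in the p35S polysomes, 4.72 and 5.00 in total RNA, 5.04 and 5.26 in pSCR, 5.02 and 4.84 in pSHR, and 5.20 and 5.07 in pWOL. For this gene the p35S arrays in hypoxia spanned the range of nearly all the others.

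Ordered by group mean, AT1G23160 stood at 8.59 ± 0.78 (SD, n = 2, as for each group mean) in p35S polysomes in air, followed by pSHR in air at 6.43 ± 0.41. Total RNA in air (6.09 ± 0.075), p35S in hypoxia (6.04 ± 0.23), pSCR in air (5.60 ± 0.74) and pSHR in hypoxia (5.57 ± 0.24) came next. Below these lay pWOL in hypoxia (5.16 ± 0.13), pSCR in hypoxia (5.09 ± 0.019), total RNA in hypoxia (5.01 ± 0.073) and pWOL in air (4.91 ± 0.23). Arrays of neighbouring groups in this order did not overlap between p35S in air and pSHR in air, between pSHR in hypoxia and pWOL in hypoxia, and between pSCR in hypoxia and total RNA in hypoxia. All other neighbours overlapped.

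AT5G51470 stood at 7.75 ± 0.39 in p35S polysomes in air. The other air groups followed closely together, with pWOL at 5.82 ± 0.30, total RNA at 5.82 ± 0.29, pSCR at 5.76 ± 0.71 and pSHR at 5.36 ± 0.41. The hypoxia groups came last, with p35S at 5.16 ± 0.43, pSCR at 5.15 ± 0.16, pWOL at 5.14 ± 0.092, pSHR at 4.93 ± 0.13 and total RNA at 4.86 ± 0.19. Neighbours in this order were separate only after p35S in air and between pWOL and pSHR in hypoxia. Every air group mean of AT5G51470 thus lay above every hypoxia group mean, which was not so for AT1G23160.

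The distance between the p35S polysomes and the other populations shrank in hypoxia for both genes. These values are side by side and untested, since they hold the arrays that led to the choice of the genes. For AT1G23160, the p35S mean in air was above total RNA by 2.50 (5.65-fold), above pSCR by 2.99 (7.95-fold), above pSHR by 2.16 (4.46-fold) and above pWOL by 3.68 (12.8-fold). In hypoxia those distances were 1.03, 0.95, 0.47 and 0.88. For AT5G51470, the distances in air were 1.93 to total RNA (3.82-fold), 1.99 to pSCR (3.98-fold), 2.39 to pSHR (5.24-fold) and 1.93 to pWOL (3.82-fold). In hypoxia they were 0.30, 0.01, 0.23 and 0.02. In hypoxia, AT1G23160 thus still had its highest mean in the p35S polysomes, while AT5G51470 stood at nearly the same mean in p35S, pSCR and pWOL. Those AT5G51470 means (5.16, 5.15 and 5.14) were close to the lower quartiles of the arrays (4.90 to 5.07), where RMA compresses signals. So was the pWOL mean of AT1G23160 in air (4.91).

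The p35S arrays also stood apart in other measures, some of them in both treatments. For GAPDH, the signal of the 3 prime control probe set exceeded that of the 5 prime one by 3.52 ± 0.50 (SD, n = 2) in p35S in air. The excess was 3.85 ± 0.33 (SD, n = 2) in p35S in hypoxia and 3.95 to 5.11 in the 16 arrays of the other populations. The higher p35S hypoxia array, at 4.08, lay inside that range, which takes in arrays of both treatments. The hypoxia arrays of the other populations read 4.14 or higher. Of 7 stele and phloem markers, 3 were measured (PHV, LHW and OPS). Their mean log2 level was 8.07 to 8.29 in p35S in air and 6.77 to 7.87 in the other air groups. In hypoxia it was 7.74 to 7.76 in p35S and 6.51 to 7.84 in the other populations. This list did not set p35S apart in hypoxia, where pSHR read 7.78 to 7.84. OPS alone did not stand apart, with means in air of 5.75 in p35S, 5.78 in pSCR, 5.76 in pSHR, 5.47 in pWOL and 5.26 in total RNA. The cortex list (2 of 2 measured) read 5.98 to 6.23 in p35S in air and 7.16 to 7.95 in the other air arrays. In hypoxia it read 5.76 to 6.61 in p35S and 6.81 to 7.40 in the other populations. Only AT1G09750 differed in air, with a mean of 7.18 in p35S and 9.42 to 10.57 in the other groups. AT1G62500 had means of 4.92 to 5.09 in all air groups. The root hair list (EXPA7 and EXPA18, 2 of 5 measured) read 7.22 to 7.67 in p35S in air and 8.06 to 9.92 in the other air arrays, and 6.02 to 7.95 in all hypoxia arrays. Of its genes, only EXPA7 stood apart in air. EXPA18 read 7.86 and 8.28 in p35S in air and 8.05 and 8.71 in pSCR in air, which overlap. The endodermis list (GSO1 and JKD, 2 of 6 measured) read 7.81 to 7.86 in p35S in air and 8.48 to 10.2 in the other air arrays. In hypoxia this list read 7.42 to 7.63 in p35S and 7.97 to 9.62 in the other populations. RCA, the 1 measured shoot marker of 3, did not stand apart, at 6.94 to 7.19 in p35S and 6.84 to 7.22 in pSHR in air. The annotation gave none of 3 root cap markers a probe set of its own. The part of these differences in the levels of AT1G23160 and AT5G51470 was not tested.

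In the p35S polysomes, the difference that led to the choice of these genes was similar in size for both. In a limma fit to all 20 arrays, AT1G23160 was 5.85-fold lower in hypoxia, a log2 difference of -2.55 ± 0.36 (SE). AT5G51470 was 6.04-fold lower, a difference of -2.59 ± 0.33. Across all probe sets, 1.92% were called lower in that comparison, and nothing is read from the members' place among them.

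The other populations were tested without the p35S arrays, in 1 limma fit to 16 arrays and 22746 probe sets, with p-values adjusted over all probe sets by the method of Benjamini and Hochberg and called below 0.05. In total RNA, both genes read lower in hypoxia than in air on both arrays, and neither difference was called. Total RNA shared lysates with the p35S polysomes, so its test is not wholly apart from the choice of the genes. AT1G23160 differed by -1.08 ± 0.30 (SE, n = 2 against 2; 95% interval -1.74 to -0.42; limma adjusted p = 0.098). AT5G51470 differed by -0.96 ± 0.31 (95% interval -1.65 to -0.27; limma adjusted p = 0.177). The unadjusted p-values were 0.00401 and 0.0106, and 0.809% of all probe sets were called lower. The estimates were 2.12-fold and 1.94-fold. With limma's trend and robust options AT1G23160 was called in total RNA (adjusted p = 0.0420, in a range of 0.0420 to 0.384 over 11 alternatives).

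In pSHR polysomes, AT1G23160 was lower in hypoxia on both arrays, by -0.86 ± 0.30 (1.81-fold; 95% interval -1.52 to -0.20; limma adjusted p = 0.153). AT5G51470 was also lower on both arrays, by -0.43 ± 0.31 (95% interval -1.12 to 0.25; limma adjusted p = 0.570). Neither was called, where 1.73% of all probe sets were called lower. Without replicate 1 in air the values were -0.57 for AT1G23160 and -0.14 for AT5G51470, and without replicate 2 in air they were -1.15 and -0.73. In pSCR polysomes, air and hypoxia arrays overlapped for both genes. The differences there were -0.51 ± 0.30 (95% interval -1.17 to 0.15; limma adjusted p = 0.409) for AT1G23160 and -0.61 ± 0.31 (95% interval -1.30 to 0.08; limma adjusted p = 0.325) for AT5G51470, with 2.34% of all probe sets called lower. Without pSCR hypoxia replicate 2, they were -0.50 and -0.72. Both pSCR values rested on which air array was kept. AT1G23160 was at -1.03 without replicate 1 in air and 0.016 without replicate 2, AT5G51470 was at -0.11 and -1.11, and none of these was called.

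In the pWOL polysomes the estimates had opposite signs. AT1G23160 read higher in hypoxia on both arrays, by 0.25 ± 0.30 (95% interval -0.41 to 0.91; limma adjusted p = 0.723). AT5G51470 read lower on both, by -0.68 ± 0.31 (95% interval -1.37 to 0.01; limma adjusted p = 0.229). Neither was called, while calls took in 3.97% of all probe sets in the higher and 4.04% in the lower direction. Without replicate 1 in air the AT1G23160 value was 0.093 and without hypoxia replicate 1 it was 0.16, while without replicate 2 in air it was 0.41.

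Arrays of air and hypoxia did not overlap, with hypoxia lower, in total RNA, p35S and pSHR for AT1G23160 and in total RNA, p35S, pSHR and pWOL for AT5G51470. With 2 arrays against 2 this is common: 23.3% of all probe sets did so in total RNA, 24.1% in p35S, 23.2% in pSHR and 27.0% in pWOL. AT1G23160 in pWOL was barely separate in the other direction, with the nearest arrays at 5.06 in air and 5.07 in hypoxia. Of all probe sets, 26.1% were separate in that direction. In pSCR, where the arrays of both genes overlapped, 25.1% of all probe sets were separate with hypoxia lower, and in total RNA 19.8% were separate with hypoxia higher.

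Averaged over the 3 cell-type lines, AT5G51470 fell in hypoxia by 0.58 on the log2 scale, with a fitted difference of -0.58 ± 0.18 (1.49-fold; 95% interval -0.97 to -0.18; limma adjusted p = 0.0467). AT1G23160 differed by -0.37 ± 0.17 (95% interval -0.75 to 0.01; limma adjusted p = 0.174) and was not called. In this comparison 9.51% of all probe sets were called lower, so 1 call of 2 genes at an adjusted p this near the threshold carries little weight. The call of AT5G51470 was met in 5 of 19 alternatives (adjusted p 0.0075 to 0.120). It was lost when any 1 of 10 of the 12 arrays was left out, namely either pSCR hypoxia, pSHR hypoxia, pWOL air or pWOL hypoxia array, or replicate 1 of pSCR or pSHR in air. The values then ran from -0.74 to -0.41 over all 12 omissions. AT1G23160 was called only without pSCR air replicate 1 (-0.55, adjusted p = 0.0204, in a range of 0.0204 to 0.381 over 19 alternatives).

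**Figure D2:**
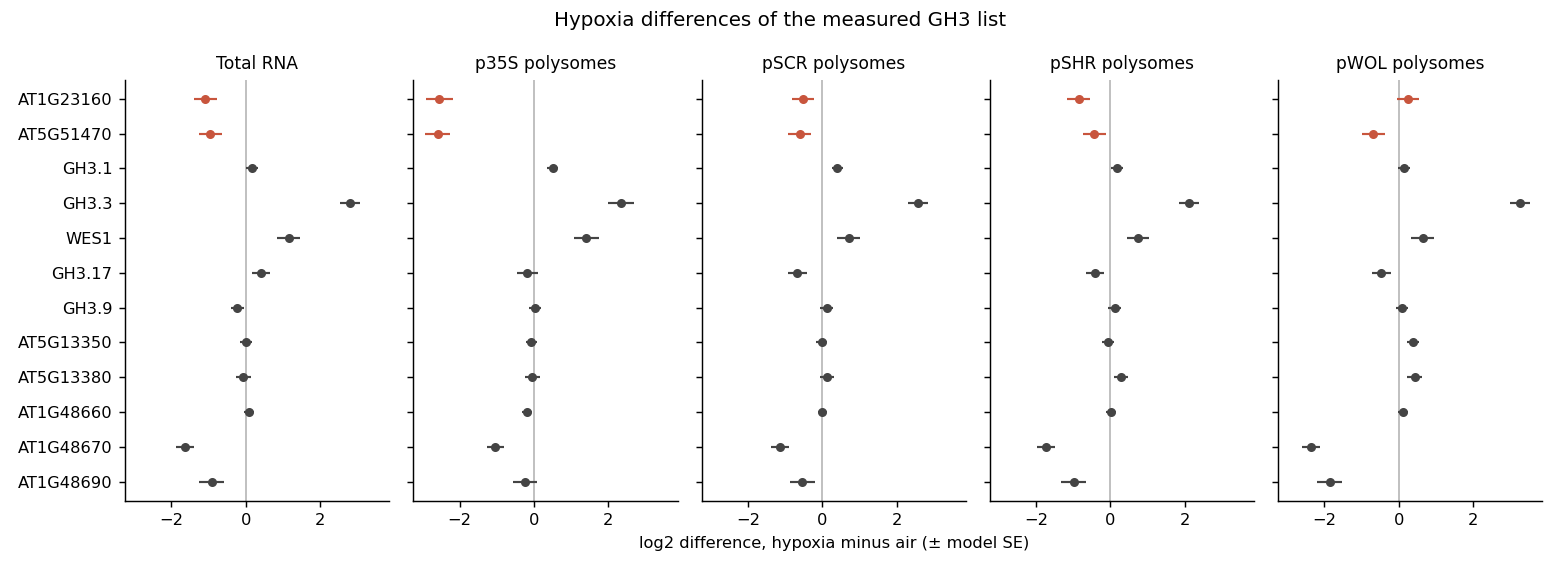
Log2 difference, hypoxia minus air, of the 12 measured genes of the GH3 list in each RNA population, with the standard error of the limma fit as bars; AT1G23160 and AT5G51470 are in red. Both lie left of zero in total RNA, p35S, pSCR and pSHR, and AT1G23160 lies at 0.25 in pWOL; GH3.3 lies right of zero and AT1G48670 left of zero in all 5 populations.

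The size of the hypoxia difference was compared between the lines. For AT1G23160, the difference in pSHR minus that in pWOL was -1.11 ± 0.43 (95% interval -2.05 to -0.18; unadjusted p = 0.0238; limma adjusted p = 0.617). The pSCR difference minus the pSHR difference was 0.35 ± 0.43, and the pSCR difference minus the pWOL difference was -0.76 ± 0.43 (limma adjusted p = 0.924 and 0.599). For AT5G51470 the 3 contrasts were small, at -0.18, 0.07 and 0.25, each ± 0.44 (limma adjusted p = 0.979, 0.981 and 0.951). In limma, 0 of 22746 probe sets were called in any of these 3 contrasts, with 1753, 2244 and 1691 at an unadjusted p below 0.05.

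In air, AT1G23160 was 2.88-fold higher in pSHR than in pWOL polysomes, 2 lines whose promoters the labels both place in vascular tissue. The log2 difference was 1.53 ± 0.30 (95% interval 0.87 to 2.19; limma adjusted p = 0.0384), and both pSHR arrays (6.72 and 6.14) lay above both pWOL arrays (4.75 and 5.06). Only 0.739% of all probe sets were called higher in pSHR than in pWOL. The call was kept in 7 of 11 alternatives (adjusted p 0.0144 to 0.240) and was lost without pSHR air replicate 1 (1.23), without pWOL air replicate 1 (1.37), without pWOL air replicate 2 (1.69), and in a fit to the compared arrays alone (adjusted p = 0.130). AT5G51470 was at -0.46 ± 0.31 (limma adjusted p = 0.526), with -0.16 without pSHR air replicate 2 and -0.24 without pWOL air replicate 2. In the same arrays the stele and phloem list read 7.81 to 7.87 in pSHR and 7.40 to 7.42 in pWOL. The cortex list read 7.29 in pSHR on both arrays and 7.59 to 7.95 in pWOL. Of its genes, AT1G09750 had means of 9.48 in pSHR and 10.57 in pWOL, and AT1G62500 of 5.09 and 4.97. The endodermis list, at 8.90 to 9.20 in pSHR and 9.17 to 9.52 in pWOL, held genes of opposite direction: the mean of GSO1 was 9.65 in pSHR and 9.20 in pWOL, and that of JKD 8.44 and 9.48. Their part in the result was not tested.

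The pSCR line did not differ beyond the threshold from the others in air. AT1G23160 was -0.83 ± 0.30 in pSCR minus pSHR (limma adjusted p = 0.188; 2.97% of all probe sets called in either direction) and 0.69 ± 0.30 in pSCR minus pWOL (limma adjusted p = 0.187; 8.29% called). The latter was 1.22 without pSCR air replicate 1 and 0.17 without replicate 2. The former was called without pSCR air replicate 2 (-1.36, adjusted p = 0.0300, in a range of 0.0300 to 0.750 over 11 alternatives). AT5G51470 was 0.40 ± 0.31 and -0.06 ± 0.31 in these contrasts (limma adjusted p = 0.622 and 0.947), and the sign of the second turned under other scalings of the arrays.

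Over the 10 group means, AT1G23160 and AT5G51470 had a Pearson correlation of 0.838 and a Spearman correlation of 0.455. Without the p35S groups, over 8 group means, these were 0.273 and 0.167. The likeness of the 2 genes was therefore mostly the p35S contrast by which they were picked. Their rank orders differed in the position of pWOL in air, the last group for AT1G23160 and the second highest for AT5G51470.

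The single-gene probe sets most like AT1G23160 by Pearson correlation over the 10 group means were AT3G17680 (0.978), GH9B6 (0.954), AT4G19460 (0.948), AT2G43480 (0.943) and AT5G02070 (0.936). GH9B6 (AT1G23210) is annotated as a glycosyl hydrolase and is not of the GH3 family in spite of its letters. Its mean was 8.49 in p35S polysomes in air and 6.03 in hypoxia. Those most like AT5G51470 were AT1G21510 (0.972), AT3G14860 (0.923), AT3G05430 (0.923), AT1G49260 (0.922) and AT4G22790 (0.919). Without the p35S groups the correlations were 0.888, 0.794, 0.773, 0.717 and 0.751 for the first set and 0.946, 0.607, 0.797, 0.751 and 0.888 for the second. These are the best of 13513 probe sets over 10 points that share arrays, so they describe likeness of level only. When the 8 other groups alone were used, the 5 closest genes were different ones for both members.

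The GH3 list holds 20 loci, of which 12 had a probe set of their own, and it was drawn up with earlier results of these data known. The files name GH3.1, GH3.3, WES1 (also GH3.5), GH3.9 and GH3.17, and membership of the loci given by code rests on the list. Cross-hybridisation between family members was not tested. Over the mean of the 3 lines, 2 of the 10 other genes rose in hypoxia and 3 fell, against 9.17% and 9.51% of all probe sets. Their median difference was 0.10, against -0.02 over all probe sets.

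GH3.3, which conjugates auxin and is an auxin-induced gene, rose in hypoxia in every population. It read 5.78 and 4.82 in the p35S arrays in air and 8.03 and 7.28 in hypoxia, opposite to AT1G23160 and AT5G51470 in the same arrays. Its difference was 2.66 ± 0.15 in the mean of the lines (6.30-fold; limma adjusted p = 7.3e-07), 2.82 ± 0.27 in total RNA, 2.35 ± 0.34 in p35S, 2.57 ± 0.27 in pSCR, 2.12 ± 0.27 in pSHR and 3.28 ± 0.27 in pWOL, and all were called. WES1, another auxin-conjugating enzyme, rose by 0.70 ± 0.18 in the mean of the lines (limma adjusted p = 0.0183) and by 1.41 ± 0.33 in p35S polysomes (limma adjusted p = 0.0257). The first call was lost without pWOL air replicate 2 (0.63). The second was lost without p35S air replicate 1 (1.02), hypoxia replicate 1 (1.21) or hypoxia replicate 2 (1.62).

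AT1G48670 fell in hypoxia in every population. It read 6.18 and 6.31 in p35S in air and 5.12 and 5.29 in hypoxia, and 7.09 and 7.83 in pWOL in air and 5.16 and 5.06 in hypoxia. Air and hypoxia did not overlap in either. The difference was -1.74 ± 0.14 in the mean of the lines (3.34-fold; limma adjusted p = 9.85e-06), -1.63 ± 0.24 in total RNA, -1.04 ± 0.23 in p35S, -1.14 ± 0.24 in pSCR, -1.73 ± 0.24 in pSHR and -2.35 ± 0.24 in pWOL. The p35S call was lost without any 1 of its 4 arrays (-1.13 to -0.95), and the pSCR call without either air array or hypoxia replicate 1 (-1.31 to -0.89). In air it was 1.29 ± 0.24 lower in pSCR than in pWOL (limma adjusted p = 0.0147; 4.37% of all probe sets called lower), a call lost without pSCR air replicate 1 or pWOL air replicate 2.

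AT1G48690 fell by 1.13 in the mean of the lines (-1.13 ± 0.20; limma adjusted p = 0.00225) and by 1.86 in pWOL (-1.86 ± 0.34; limma adjusted p = 0.00814). The pWOL call was lost without replicate 1 in air or in hypoxia (-1.78 and -1.79), and in p35S the difference was -0.25 ± 0.32. GH3.17, an auxin-conjugating enzyme, fell by 0.51 in the mean of the lines (-0.51 ± 0.14; limma adjusted p = 0.0270). This was lost without any 1 of 7 arrays: replicate 2 of pSCR in air, pSCR in hypoxia or pSHR in hypoxia, replicate 1 of pSHR or pWOL in air, or either pWOL hypoxia array. In p35S it differed by -0.18 and in total RNA by 0.41, and neither was called. GH3.1, GH3.9, AT5G13350, AT5G13380 and AT1G48660 had differences of 0.04 to 0.28 in the mean of the lines and were not called. One further probe set, shared by AT5G13370 and AT5G13360, differed by 0.73 ± 0.26 (limma adjusted p = 0.0698).

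**Figure D3:**
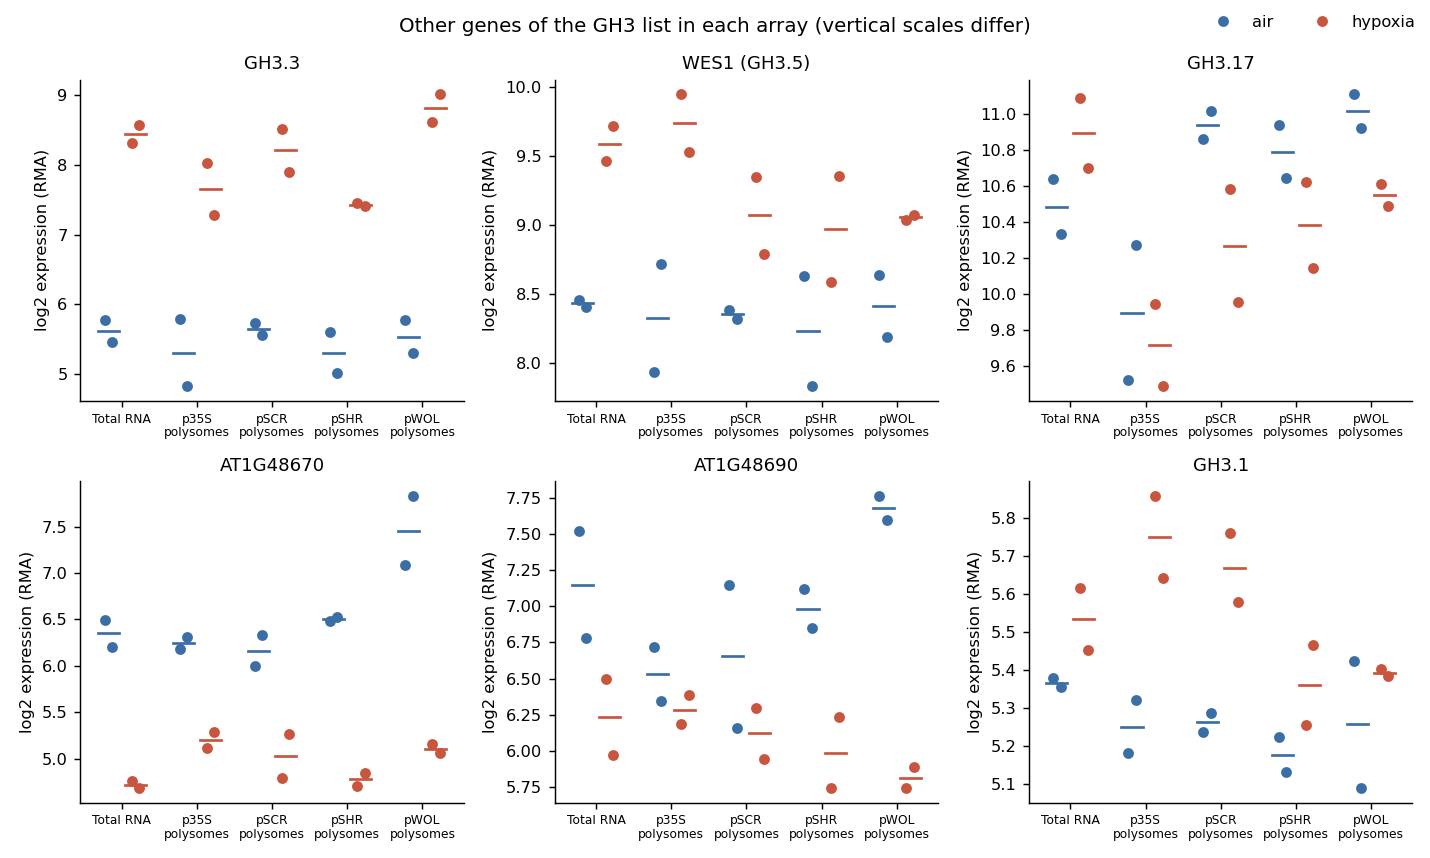
Level of 6 other genes of the GH3 list in each of the 20 arrays, as log2 expression after RMA, by RNA population; blue points are arrays in air, red points arrays in hypoxia, bars are means of 2 arrays, and the vertical scales differ between panels. GH3.3 is higher in hypoxia and AT1G48670 lower in all 5 populations, and no panel shows the high p35S level in air of AT1G23160 and AT5G51470.

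By single population, the 10 other genes gave 1 called higher and 1 called lower in total RNA, in pSCR and in pSHR, 1 and 2 in pWOL, and 2 and 1 in p35S. GH3.3 and AT1G48670 were among the calls in each. Over all probe sets the shares called higher were 1.94% in total RNA, 3.27% in pSCR, 2.48% in pSHR, 3.97% in pWOL and 2.8% in p35S, and the shares called lower were 0.809%, 2.34%, 1.73%, 4.04% and 1.92%.

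Of 83 entries in the other auxin lists, which cover synthesis, transport, receptors, response factors, Aux/IAA repressors and the removal of auxin or its conjugates, 13 had a probe set of their own, and none of those was for transport, receptors or response factors. AT1G14120, entered in the list as an auxin oxidase, fell by 1.87 in the mean of the lines (-1.87 ± 0.21; limma adjusted p = 1.13e-04). It was called in pSCR (-2.54 ± 0.36) and pWOL (-2.20 ± 0.36) and not in total RNA (-0.65), pSHR (-0.87) or p35S (-1.02). The other measured gene of that list, AT1G14130, differed by -0.27 ± 0.16 in the mean of the lines (limma adjusted p = 0.279) and was not called. IAA29, a repressor of auxin response, fell by 0.48 (-0.48 ± 0.14; limma adjusted p = 0.0308) and was 1 of 7 measured Aux/IAA genes called, beside 9.17% of all probe sets called higher and 9.51% called lower. This call was lost without any 1 of 8 of the 12 arrays, namely either pSCR air or pWOL hypoxia array, or replicate 2 of pSCR in hypoxia, pSHR in air, pSHR in hypoxia or pWOL in air. None of 4 measured auxin synthesis genes was called. SAG101 was the 1 measured gene of 14 on the salicylic acid list and was not called. The annotation gave none of 18 jasmonate genes a probe set of its own.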

How the data were processed

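The authors deposited 1 log2 value per probe set for each of 20 arrays, made with RMA and the package affy, per the submitters' processing notes, with versions and genome build not given in the sources used here. No further scaling was applied. Of 22810 probe sets, 64 controls were left out; 13513 of the rest name 1 gene, 503 several and 8730 none, and the TAIR10.1 gene table, used for names only, held the gene of 13436. The members and the gene lists were chosen with earlier results of these data known. Tests used limma 3.58.1 in R 4.3.3 on 16 arrays (8 groups, 8 residual degrees of freedom) over 22746 probe sets, in 11 comparisons, without the p35S arrays, which had served to pick the members. The p35S comparison came from a fit to all 20 arrays; the members' p35S values carry no p. Genes named are the members, measured genes of the lists, and the 5 most correlated probe sets per member. Alternatives were quantile normalization, median centring, trend and robust moderation, the compared arrays alone, all 20 arrays, leaving out the dimmest 25% of probe sets, a replicate block, and leaving out each array. The fits were tested on simulated data with 100 planted log2 differences of size 1 and 100 of size 2. In pSCR, 36 and 89 of these were recovered, and in the mean of the lines 74 and 99. In the hypoxia contrast pSHR minus pWOL, 8 and 48 were recovered, so a difference that was not called may still be present. The number of arrays limits the precision.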

Additional observations from a re-analysis of the deposited data

Results flagged for a closer look

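For AT1G23160, the order of the air and hypoxia arrays differed between populations, although no tested difference was called. Both hypoxia arrays were above both air arrays in pWOL (0.25), and both were below in total RNA (-1.08), p35S (-2.55) and pSHR (-0.86); p35S served to pick the gene. With 2 arrays against 2, 23.2% to 24.1% of all probe sets were separate with hypoxia lower in these 3, and 26.1% with hypoxia higher in pWOL. In pWOL the nearest arrays read 5.06 in air and 5.07 in hypoxia, close to the lower quartile of an array, so they were barely separate. The difference between pSHR and pWOL was tested and not called (limma adjusted p = 0.617). Those between pWOL and total RNA or p35S were not tested.

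For GH3.17, both hypoxia arrays were above both air arrays in total RNA (0.41) and below in pSCR (-0.67), pSHR (-0.41) and pWOL (-0.46). For AT1G48660, they were above in total RNA (0.089) and below in p35S (-0.18). These differences between populations were not tested. All arrays of AT1G48660 read between 3.95 and 4.34, below the lower quartile of every array (4.90 or higher). With 2 arrays against 2, 19.8% of all probe sets were separate with hypoxia higher in total RNA. In the polysome populations, 23.2% (pSHR) to 27.0% (pWOL) were separate with hypoxia lower.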

How the results depend on the processing

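Array by array omission gave the widest ranges: AT5G51470 in the mean of the lines -0.74 to -0.41, and AT1G23160 there -0.55 to -0.20, in pSCR -1.03 to 0.016, in pSCR minus pSHR in air -1.36 to -0.31, in pSHR minus pWOL in air 1.23 to 1.82, in pSCR minus pWOL in air 0.17 to 1.22, and in the hypoxia contrasts pSCR minus pSHR -0.18 to 0.87 and pSCR minus pWOL -1.29 to -0.24. For AT5G51470 the ranges were -0.11 to 0.90 (pSCR minus pSHR, air), -0.56 to 0.44 (pSCR minus pWOL, air), -0.68 to 0.33, -0.43 to 0.57 and -0.043 to 0.54 (hypoxia contrasts pSCR minus pSHR, pSCR minus pWOL and pSHR minus pWOL). Numbers of called probe sets then ran from 270 to 382 in total RNA (625 with all arrays), 514 to 1179 in p35S (1074), 430 to 1049 in pSCR (1277), 369 to 1557 in pSHR (959), 632 to 766 in pWOL (1824), 36 to 551 in pSCR minus pSHR (676), 192 to 798 in pSCR minus pWOL (1886), 2 to 520 in pSHR minus pWOL (363), and 0 to 1, 0 to 2 and 0 to 5 in the 3 hypoxia contrasts. The AT5G51470 call in the mean of the lines was lost with the replicate block (-0.58, adjusted p = 0.0571), the compared arrays alone (-0.58, 0.0710), quantile normalization (-0.56, 0.0591) and median centring (-0.57, 0.0532). Its pSCR minus pWOL value in air turned to 0.0046 with quantile normalization and 0.042 with median centring, and its pSCR minus pWOL hypoxia contrast to -0.051 with median centring. With trend and robust moderation AT1G23160 in total RNA (-1.08) was called at 0.0420, and 1 probe set was called in the pSHR minus pWOL hypoxia contrast. With the compared arrays alone, AT1G23160 in pSHR minus pWOL (1.53) was not called (0.130), and the counts were 228 in pSCR, 20 in pSHR, 0 in limma for pSCR minus pSHR (3385 at an unadjusted p below 0.05) and 1 in pSHR minus pWOL; fewer residual degrees of freedom are part of that setting. Median centring moved the share of higher calls from 43.6% to 57.0% in pSCR minus pSHR and from 47.3% to 60.7% in pSCR minus pWOL in air, and the median of all probe sets in the latter from -0.0059 to 0.0955 and in its hypoxia contrast from -0.0019 to -0.125. The sources used here do not say what air and hypoxia arrays of the same number share. Their deviations correlated at 0.254 in total RNA, 0.0183 in p35S, -0.0677 in pSCR, 0.291 in pSHR and -0.162 in pWOL. With 2 arrays in each group, these values cannot decide whether such arrays were paired. The replicate block changed no other call of the members. Crossing the numbers in pWOL, an alternative chosen after seeing the data, called 3849 probe sets. For the other named genes, 248 alternative values kept direction and call, 35 kept direction and lost the call, and none reversed. Except where a cause is named, the cause was not tested.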

Other observations

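Genes near the members were read for comparison, a choice made after the members' values were seen. Among the 6 protein-coding genes on each side in the TAIR10.1 order, 6 near AT1G23160 and 5 near AT5G51470 had a probe set of their own. In p35S polysomes, AT1G23180 had the lowest hypoxia difference of the 6 near AT1G23160, at -0.86 ± 0.35 (limma adjusted p = 0.227), with means of 7.92 in air and 7.06 in hypoxia. GH9B6 (AT1G23210), with a locus code close to that of AT1G23160, was not among these 6. Its p35S mean was 8.49 in air and 6.03 in hypoxia. AT1G23205 fell by 0.38 in the mean of the lines (limma adjusted p = 0.00939) and differed by -0.32 in p35S. Near AT5G51470, AT5G51440 rose by 3.45 ± 0.56 in p35S (limma adjusted p = 0.00271) and by 3.44 in the mean of the lines (limma adjusted p = 3.22e-05). Its direction was opposite to that of AT5G51470, from which 4 coding genes separate it. The other 4 near AT5G51470 had p35S differences of -0.46 to 0.16 and were not called.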
